A study of Mus musculus with 6 samples.

Results

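The tail scale keratins are 4 genes, Krt31, Krt35, Krt36 and Krt84, whose proteins harden the scales of mouse tail skin. They were taken by name, as every non-control probe whose RefSeq accession belongs to one of them, which gave 5 of 55681 probes and 4 of 21368 named genes. Krt36 had 2 probes and each other gene had 1, and all 5 probes were well above background on all 6 arrays. The genes were selected on their measured array values, with the results of the comparison between aged and young mice already known, so their levels and differences are given as a description, with no test.

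Total RNA came from the epidermis of the tail of wild-type C57BL/6 mice, peeled off the dermis after EDTA, and was amplified and measured on 1-colour Agilent arrays. The young group held 3 samples from mice of 8 weeks, and the aged group held 1 sample from 22 months (aged replicate 1) and 2 from 25 months (aged replicates 2 and 3). No treatment or transgene is named in the labels. The labels do not say that each sample came from a separate animal or whether animals were pooled, so p-values measure only the spread between these samples, part of which may be technical. Aged replicate 1 differs from the other aged samples in age and in the Y-linked transcripts described below.

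Keratins form the intermediate filaments of epithelial cells, and each filament pairs a type I with a type II keratin. The hard keratins are the cysteine-rich members that build hair and nail. The epidermis between the follicles of mouse tail alternates between scales, which harden without a granular layer, and interscale bands, which mature like epidermis elsewhere and carry Krt10. Krt31, Krt35 and Krt36 are type I hard keratins and Krt84 is a type II hard keratin. Krt31 and Krt35 also build the growing hair shaft, where Krt35 appears early, near the matrix, and Krt31 later, in the cortex.

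The promoters are shown because the 4 genes divided into a pair that was low in aged samples and a pair that was level, and the sequences before their starts can be set side by side. RefSeq promoters of the GRCm38.p6 build were found for 3 of the 4 genes. Each run below is the 250 bases before the start of the gene, 5′ to 3′ along the gene, with searched motifs in capitals. Krt31 lies on the minus strand at chr11:100050552-100050801, Krt36 on the minus strand at chr11:100105627-100105876 and Krt84 on the minus strand at chr15:101532821-101533070.
Krt31: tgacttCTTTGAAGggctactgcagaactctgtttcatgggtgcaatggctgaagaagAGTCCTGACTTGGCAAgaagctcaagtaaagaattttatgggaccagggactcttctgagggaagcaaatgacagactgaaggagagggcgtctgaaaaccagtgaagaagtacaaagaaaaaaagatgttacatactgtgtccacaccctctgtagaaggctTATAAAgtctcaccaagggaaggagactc
Krt36: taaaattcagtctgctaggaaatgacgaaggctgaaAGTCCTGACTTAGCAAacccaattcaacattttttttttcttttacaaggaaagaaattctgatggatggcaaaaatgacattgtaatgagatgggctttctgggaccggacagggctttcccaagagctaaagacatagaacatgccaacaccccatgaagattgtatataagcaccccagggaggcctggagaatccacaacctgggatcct
Krt84: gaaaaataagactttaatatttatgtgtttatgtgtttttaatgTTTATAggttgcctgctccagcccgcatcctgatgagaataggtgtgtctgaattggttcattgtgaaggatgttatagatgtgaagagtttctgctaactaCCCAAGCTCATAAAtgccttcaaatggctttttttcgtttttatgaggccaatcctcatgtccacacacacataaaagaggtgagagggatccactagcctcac

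Motifs were searched on both strands, were chosen after the sequences had been seen, and do not overlap one another in these promoters. The word AGTCCTGACTTNGCAA, the longest that the promoters of Krt31 and Krt36 shared with 1 mismatch allowed, was held by 2 of 32851 promoters of this length (0.00609%), those of Krt31 and Krt36. Its first base lay 192 bases before the start of Krt31 and 214 bases before that of Krt36. The word CTTTGAAG was held by 1.42% of all promoters and by 5 of 23 keratin promoters searched, those of Krt31, Krt32, Krt33b, Krt34 and Krt39. It was not among the letters shown for Krt36 or Krt84. In Krt31, Krt32, Krt33b and Krt34, which lie near one another on chromosome 11, it began 240 to 247 bases before the start. In Krt39 it lay on the opposite strand, 20 bases before the start. The share among keratins is not read as enrichment, since the word was chosen after the sequences had been seen. The word CCCAAGCTCATAAA, the longest that the promoters of Krt84 and its neighbour Krt82 shared exactly, was held by 2 promoters, that of Krt84, beginning 104 bases before its start, and that of Krt82, beginning 102 bases before its start (0.00609%). The core promoter word TATAAA was held by 12.4% of promoters and lay 29 bases before the start of Krt31. In Krt84 its match lay on the opposite strand, 206 bases before the start, and Krt36 held no match. Only the exact word was searched, so near matches in Krt36 and Krt84 were not counted. The longest shared words were taken from the promoters that hold them, so those matches were fixed in advance. All matches are letters in a window and say nothing of binding.

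Values below are log2 of the processed signal minus the 75th percentile of that array, so 1 unit is a factor of 2. The 75th percentile lay between 230.15 and 300.33 signal units, from 50.02% to 54.38% of the probes on each array exceeded background clearly, and 0 spots were saturated. In the comparison of aged with young arrays by limma, 11 of 14134 genes passed an adjusted p of 0.05 (0.0778% of those tested), 5 of them lower in aged samples (0.0354%). Groups did not overlap for 27.0% of genes in either direction and for 7.48% with aged samples lower. Over all genes tested the difference had a median of 0.09 log2 units, and 36.4% were lower in aged samples. Aged replicate 1 stood apart from the other aged arrays in the results below. It was the one aged sample of 22 months, and with young replicate 1 it carried the Y-linked transcript Ddx3y, at 1.89 and 2.17. On the other 4 arrays Ddx3y read from -6.73 to -6.48 and was not well above background. The X-linked transcript Xist was well above background on those 4 arrays by both its probes, and on young replicate 1 by 1 probe, at -2.88. Each group thus mixed samples with and without Ddx3y. Of the Y-linked gene Uty, 1 probe was well above background on young replicate 3 as well, at -1.74, and the other probe was not. Age in months, the transcripts of the Y chromosome and other properties of aged replicate 1 cannot be told apart.

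Krt31, the cortex and scale keratin, was lower in aged than in young epidermis, with a difference of -3.37 ± 1.28 log2 units (limma SE, n = 3 arrays per group), or 10.3-fold. Its young values were 7.28, 6.22 and 7.35 on replicates 1, 2 and 3, and its aged values were 6.39, 3.26 and 1.09. Aged replicate 1 lay above young replicate 2, so the groups overlapped, while both samples of 25 months lay below every young sample. The young mean was 6.95 ± 0.63 and the aged mean 3.58 ± 2.67 (SD, n = 3). Relative to the young mean, Krt31 was 1.47-fold lower at 22 months and 12.9-fold and 58.1-fold lower on the arrays of 25 months. The signal of 489 units on aged replicate 3 compared with 19417 to 43518 units on the young arrays and was still well above background. Without aged replicate 3 the difference was -2.12, a smaller gap by more than 1.5 times, and without aged replicate 1 it was -4.77.

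Krt35, the early hair shaft and scale keratin, was lower too, by a difference of -3.95 ± 1.40 log2 units, or 15.4-fold. The young values were 7.19, 6.08 and 6.61, and the aged values 6.07, 1.34 and 0.63. The highest aged value, at 22 months, lay just below the lowest young value, so the groups did not overlap, but only by the narrow margin between 6.07 and 6.08. The young mean was 6.63 ± 0.56 and the aged mean 2.68 ± 2.96 (SD, n = 3). Aged replicate 1 was 1.47-fold below the young mean, the same as for Krt31, and aged replicates 2 and 3 were 39.0-fold and 64.0-fold below it. The difference was -5.64 without aged replicate 1 and -2.92 without aged replicate 3. In whole epidermis, fewer cells that carry a transcript and less of it per cell cannot be told apart, nor can scale and hair shaft as the source of Krt31 and Krt35.

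Krt36, the type I hard keratin of the scale that lies beside Krt35 in the genome, kept to one level. Its brighter probe read 9.63, 9.67 and 9.90 in young samples and 9.47, 9.68 and 9.91 in aged samples. The groups overlapped, and all 6 values lay within 0.44 log2 units. The difference was -0.05 ± 0.16 log2 units, with group means of 9.73 ± 0.14 and 9.69 ± 0.22 (SD, n = 3). The second probe read 9.02, 9.06 and 9.25 in young and 8.95, 9.07 and 9.22 in aged samples, a difference of -0.03. Both probes were lowest on aged replicate 1, and on both the values of replicate 3 were the highest of each group.

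Krt84, the type II hard keratin of the scale, also kept to one level. The young values were 9.86, 9.86 and 9.93 and the aged values 9.65, 9.92 and 10.03, so that the aged samples spanned the young ones. The difference was -0.02 ± 0.14 log2 units, with means of 9.88 ± 0.04 and 9.87 ± 0.20 (SD, n = 3). The 3 young arrays lay within 0.0677 log2 units of one another and the 3 aged arrays within 0.387. The sign of the small difference of Krt84 and of Krt36 turned under quantile normalization (0.09 and 0.07) and under scaling to the median (0.06 and 0.03), and without aged replicate 1 (0.09 and 0.06). Neither gene had a direction that these arrays could resolve.

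Krt36 and Krt84 gave bright spots, of 137239 to 271173 signal units over all 3 of their probes and all arrays. The scanner's saturation value was 777873 units, and the scanner software fitted its spike-in controls as linear up to between 595127 and 657506 units, per the file headers. The signals of both genes lay within the range that the controls covered on every array. Krt31 and Krt35, of 356 to 43518 units, lay within it too. Whether the probes of these genes themselves responded linearly was not tested.

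**Figure D1:**
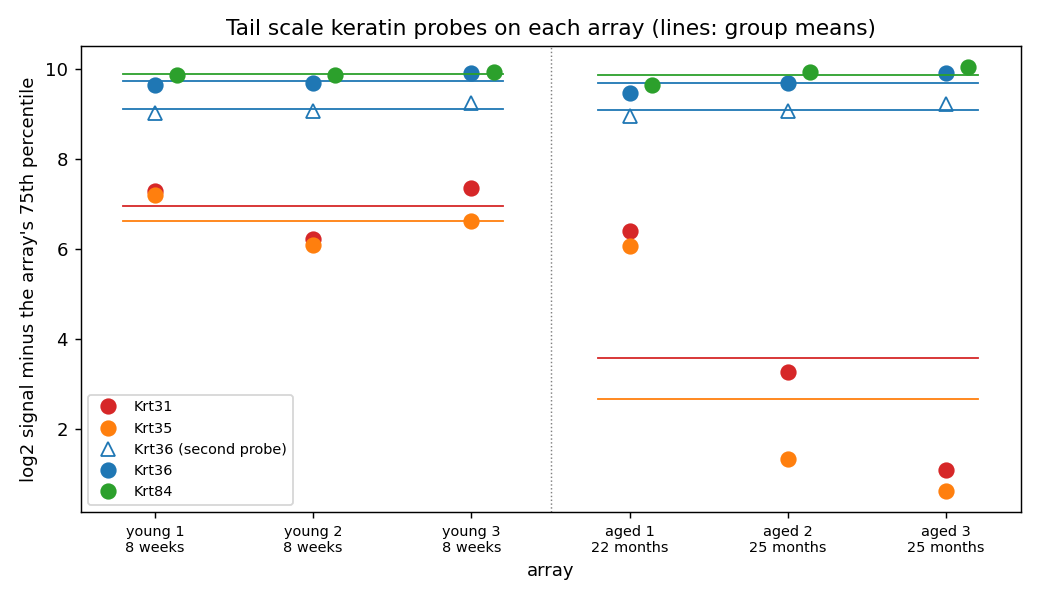
Log2 signal relative to the 75th percentile of the array (y axis) for each of the 5 probes on the 6 arrays (x axis), with group means as lines and the second Krt36 probe as open triangles. Krt31 and Krt35 lie between 6.08 and 7.35 on the young arrays and down to 1.09 and 0.63 on aged replicate 3, while Krt36 and Krt84 keep to one level on all arrays.

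Of the 4 genes, 2 were at least 2-fold lower in aged samples, against 4.17% of all genes tested, and 1, Krt35, had groups that did not overlap in that direction, against 7.48%. Since the genes were chosen with this contrast known, nothing is read from these shares. Between Krt31 and Krt35 the profiles over the 6 arrays, each centred on its own mean, lay a root mean square distance of 0.62 log2 units apart. Krt36 and Krt84 lay 0.0714 apart. Any pairing of one from each pair gave 2.38 to 2.70.

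Young replicate 2 was the lowest young array for both Krt31 and Krt35, at -0.73 and -0.55 log2 units from the young mean. Their highest young arrays differed, replicate 3 for Krt31 (0.40) and replicate 1 for Krt35 (0.56, against -0.02 on replicate 3). Young replicate 3 was the highest young array for 8 of 10 hair shaft keratins, 1 of 9 inner root sheath genes and 24.8% of all genes. Among hair shaft keratins 8 of 10, and among inner root sheath genes 9 of 9, were also lowest on young replicate 2, compared with 34.0% of all genes tested. Within the aged group the same lists ran in the order of Krt31 and Krt35, highest on aged replicate 1 and lowest on aged replicate 3, for 8 of 10 and 8 of 9 genes, compared with 21.2% of all genes. Krt36 and Krt84 ran the opposite way in the aged group, as did 5 of 8 interfollicular keratins and 32.2% of all genes.

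The hair shaft keratins, which build the fibre itself, were low on the same arrays as Krt31 and Krt35. The list held 12 genes besides the tail scale keratins, and 10 were tested. All 10 were lower in aged samples, against 36.4% of all genes, with a median difference of -3.58 log2 units, beside 0.09. Groups did not overlap for 7 of them, against 7.48% of all genes with aged samples lower. By limma 0 of them passed the threshold over all features, and 7 had an unadjusted p under 0.05, against 6.30% of genes that were lower with such a p. The examples with the smallest p were Krt39 (-1.32 ± 0.18, limma adjusted p = 0.0892), Krt81, a type II cortex keratin (-2.76 ± 0.92, 0.217), Krt82, a type II keratin of the hair cuticle (-4.09 ± 1.46, 0.234), and Krt40 (-4.28 ± 1.53, 0.236), which was well above background on 2 of the 3 aged arrays. The summed linear level of the 10 genes, in multiples of the 75th percentile of the array, was 717 to 1256 on the young arrays and 615, 140.3 and 51.8 on aged replicates 1, 2 and 3. On aged replicate 3 most of this sum came from Krt32, at 5.30 log2 units, while the next highest gene of the list, Krt81, was at 1.98. Without aged replicate 1 the median was -5.04 and 6 genes passed, against 3.76% of all genes that were lower past the threshold in that fit, and without aged replicate 3 the median was -1.92 and 0 passed. The part of hair shaft content in the values of Krt31 and Krt35 was not tested.

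Krt32 and Krt39 did not share the order of Krt31 and Krt35 on the aged arrays. Krt39 was at -1.51, -1.41 and -1.04 from the young mean on aged replicates 1, 2 and 3, lowest on aged replicate 1. Krt32, a type I hair keratin whose gene lies between those of Krt31 and Krt35, read 5.14, 5.17 and 5.30 in young and 4.51, 4.91 and 5.30 in aged samples, and differed by -0.29 ± 0.21 (limma adjusted p = 0.489). Within each group its values ran in the same order as those of Krt36, lowest on replicate 1 and highest on replicate 3.

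The inner root sheath list, the keratins and trichohyalin of the layer that moulds the hair, was low on those arrays as well. All 9 of 9 genes were lower, against 36.4% of all genes, with a median of -3.32 beside 0.09. Groups did not overlap for 8 of them, against 7.48% of all genes with aged samples lower. By limma 0 passed and 8 had an unadjusted p under 0.05, against 6.30% of genes that were lower with such a p. Krt72 differed by -2.90 ± 0.68 (limma adjusted p = 0.149), Krt74 by -1.87 ± 0.55 (0.194), Krt26 by -4.36 ± 1.51 (0.225) and Tchh, trichohyalin, by -3.32 ± 1.16 (0.227). The summed level of the list was 684 to 982 on the young arrays and 523.5, 107.1 and 14.4 on the aged arrays. Krt74 was well above background on 1 of the 3 aged arrays (replicate 1) and Krt26 on 2 (replicates 1 and 2), so their differences include values at background. Without aged replicate 1 the median was -4.49 and 6 genes passed, against 3.76% of all genes passing lower in that fit. Without aged replicate 3 the median was -1.99 and 0 passed.

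**Figure D2:**
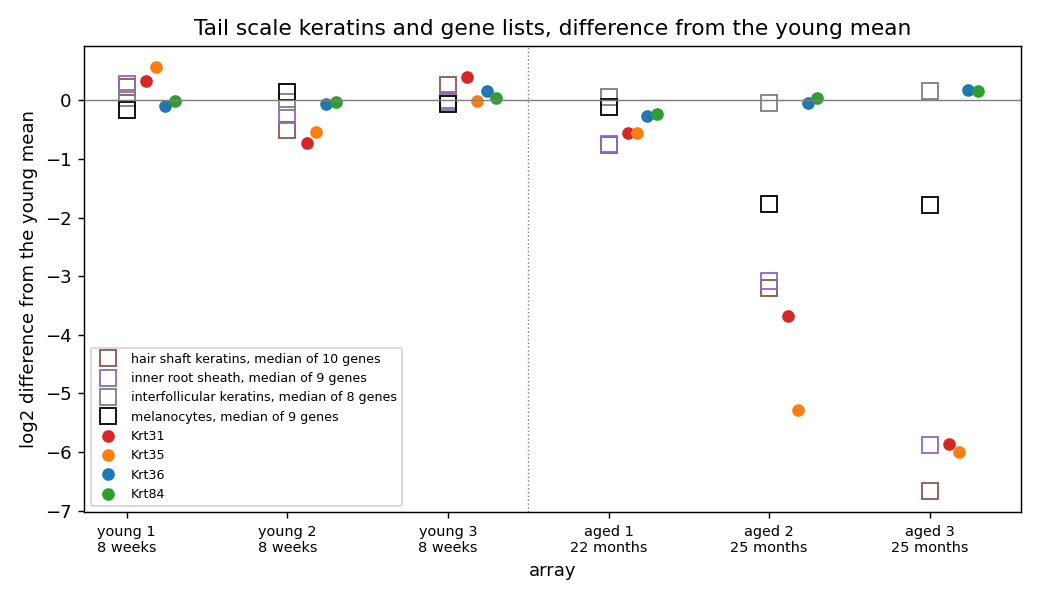
Log2 difference from the young mean (y axis) on each array (x axis) for the 4 genes (filled circles, shifted sideways for clarity) and for the medians of 4 gene lists (open squares). On aged replicate 1 Krt31 and Krt35 are both at -0.56, beside -0.77 and -0.76 for the hair shaft and inner root sheath lists. On aged replicate 3 they are at -5.86 and -6.00 beside -6.67 and -5.87, and Krt36, Krt84 and the interfollicular keratins stay near 0.

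The samples of 25 months separated Krt31 from Krt35. The step from aged replicate 2 to aged replicate 3 was -0.72 log2 units for Krt35 and -2.17 for Krt31. On aged replicate 2 Krt35 was already at -5.29 from the young mean, lower on that scale than each of the hair shaft keratins and inner root sheath genes tested. The nearest was Krt82, at -5.02, followed by Krt40 at -4.59. The cortex keratins Krt33a, Krt34 and Krt86 were at -3.34, -2.98 and -2.94 there and their steps were -3.77, -4.16 and -4.25. In the hair shaft list 8 of 10 genes and in the inner root sheath list 8 of 9 genes had a larger downward step than Krt35, and 5 in each list had a larger one than Krt31. Both are single samples of the same age, and the step between them has no replicate.

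**Figure D3:**
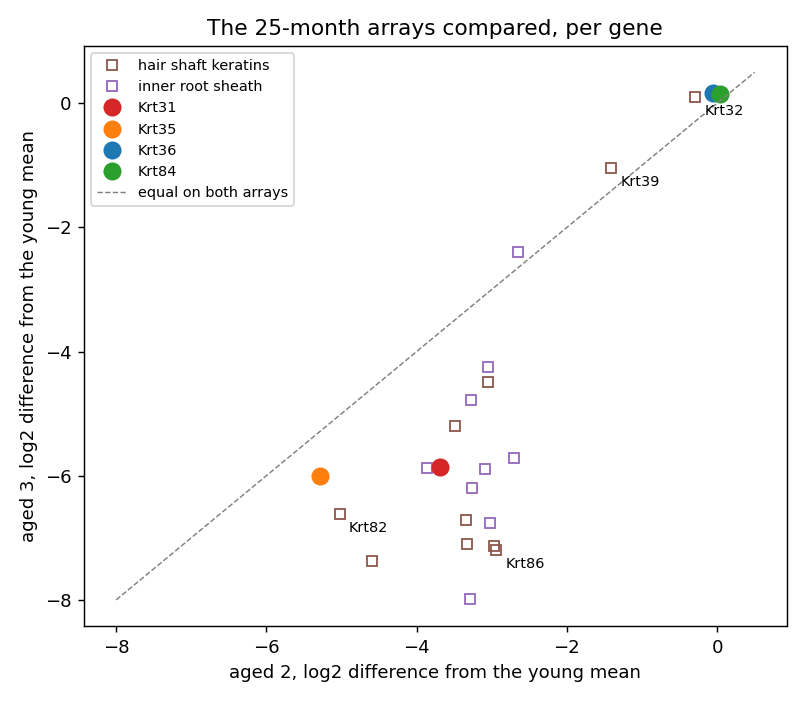
Log2 difference from the young mean on aged replicate 2 (x axis) and aged replicate 3 (y axis), 1 point per gene, for the 4 tail scale keratins, 10 hair shaft keratins and 9 inner root sheath genes. Krt35 lies near the line of equal values at -5.29 and -6.00, beside Krt82, whereas Krt86 lies far under it at -2.94 and -7.19, and Krt36 and Krt84 lie near 0 on both axes.

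The gene order on the chromosomes cut across these patterns. Along chromosome 11, measured protein-coding genes run Krt33a, Krt33b, Krt34, Krt31, Krt32, Krt35, Krt36, Krt13, Krt15 and Krt19. The first 4 differed by -3.75 ± 1.49, -3.52 ± 1.48, -3.66 ± 1.50 and -3.37 ± 1.28, in that order. Krt32 was nearly level, Krt35 was low, and Krt36, the next measured gene, was not. On the far side Krt13, a keratin of moist stratified epithelia, differed by -0.13 ± 0.16 (limma adjusted p = 0.674), Krt15, found in basal keratinocytes and the hair bulge, by -0.30 ± 0.28 (0.593), and Krt19, well above background on 3 of the 6 arrays, by 0.13 ± 0.26 (0.819). Among the measured genes of chromosome 15, Krt84 stood between Krt86, at -3.64 ± 1.53, and Krt82, at -4.09 ± 1.46. Farther out were Krt81, at -2.76 ± 0.92, and on the other side Krt90, at 0.62 ± 0.97, and Krt75, the keratin of the companion layer, at -1.33 ± 0.48. Krt88 exceeded background on 0 arrays. Probe sequences were not used here, so hybridisation between the related transcripts of this family was not checked.

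**Figure D4:**
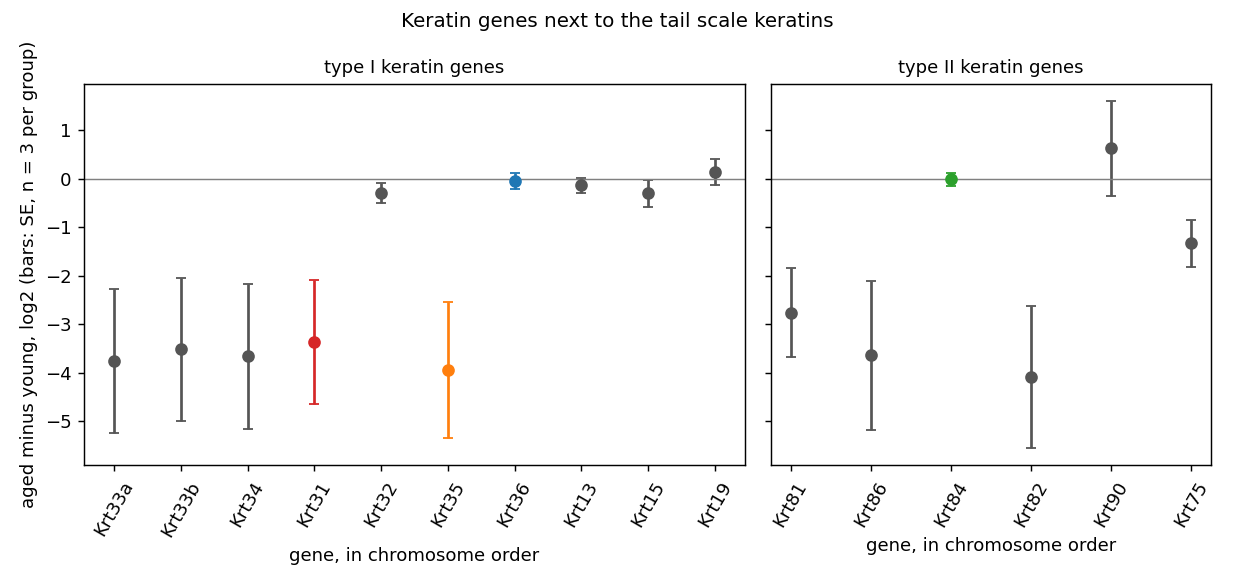
Difference of aged minus young on the log2 scale (y axis, points with limma SE bars, n = 3 arrays per group) for keratin genes in chromosome order (x axis), type I genes left and type II genes right, with the 4 tail scale keratins in colour. Among measured genes, Krt36 at -0.05 is next to Krt35 at -3.95, and Krt84 at -0.02 lies between Krt86 at -3.64 and Krt82 at -4.09.

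The genes with the profile nearest to each tail scale keratin were taken by the root mean square distance over the 6 arrays. Nearest to Krt31 were Krtap11-1 (0.19 log2 units), Krtap1-3 (0.22), Krt28, an inner root sheath keratin (0.22), Krtap5-2 (0.23) and Gm19668 (0.23), where Krtap genes encode the matrix proteins in which hair keratin filaments are embedded. Krtap11-1 read 7.58, 6.48 and 7.55 in young and 6.82, 3.82 and 1.03 in aged samples. Nearest to Krt35 were Cybrd1, a gene of iron reduction (0.25), Krtap24-1 (0.30), Fbp1, an enzyme of gluconeogenesis (0.31), Krt82 (0.31) and Krtap16-1 (0.32). Cybrd1 read -5.38 and -6.56 on aged replicates 2 and 3, and Krtap24-1 read -5.12 on aged replicate 3. The lowest values well above background on those arrays were -4.65 and -4.40, so the distances of Cybrd1 and Krtap24-1 include values at background. Krt82 read 4.43, 3.65 and 4.40 in young and 3.52, -0.86 and -2.46 in aged samples. Nearest to Krt36 were Polrmt, Dcaf6, Naip5, Ttc16 and Krt2, at 0.0427 to 0.0464 log2 units, and nearest to Krt84 were AU040320, Actb, Fam25c, Usp28 and Mtss1, at 0.0248 to 0.0330. Distances for this pair are small because both profiles are nearly flat.

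Among the genes of the scale and interscale lineages, none differed past the threshold. Slc1a3, a glutamate transporter gene that marks the scale lineage, read -1.71, -2.08 and -1.99 in young and -2.36, -2.27 and -1.85 in aged samples, a difference of -0.23 ± 0.18 (limma adjusted p = 0.522). Dlx1, a homeobox gene that marks the interscale lineage, differed by -0.05 ± 0.25 (0.927). Krt10, the suprabasal keratin of the interscale, differed by 0.02 ± 0.11 (0.950). Krt2, another late keratin of the epidermis, differed by 0.01 ± 0.16 (0.970), and was lowest on aged replicate 1 and highest on aged replicate 3, as Krt36 and Krt84 were. By limma 0 of these 4 genes passed, and 0 had an unadjusted p under 0.05.

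The interfollicular keratins as a list had a median difference of 0.00 log2 units over 8 of 9 genes tested, 4 lower and 4 higher. By limma 0 passed, and 0 had an unadjusted p under 0.05. Krt14 and Krt5, the keratins of the basal layer, differed by 0.26 ± 0.13 and 0.12 ± 0.11 (limma adjusted p = 0.336 and 0.557), and Krt1, a suprabasal keratin, by -0.43 ± 0.31 (0.486). The summed level of the list was 2451 to 2540 on young and 2445 to 2677 on aged arrays.

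The hair matrix holds the dividing cells that give rise to the shaft, and a list of its transcription factors was read. Which cells of whole epidermis these transcripts came from was not tested, so the list is not a measure of matrix content alone. Of 10 genes, 7 were lower and 3 higher in aged samples, against 36.4% of all genes lower. The median was -0.36. By limma 0 passed, and 3 lower and 1 higher gene had an unadjusted p under 0.05. Of all 14134 genes, 2498 had such a p in either direction, and 6.30% were lower with one. Lef1, a mediator of Wnt signals in the matrix, read 2.16, 1.37 and 1.56 in young and 1.41, -1.70 and -2.17 in aged samples, a difference of -2.52 ± 0.93 (limma adjusted p = 0.243), with the groups overlapping at aged replicate 1. Msx2 differed by -1.15 ± 0.40 (0.227), Dlx3 by -0.46 ± 0.13 (0.189) and Hoxc12 by 0.37 ± 0.12 (0.213). Hoxc13, a homeobox regulator of hair keratin genes, was chosen for mention after its values were seen. It read 3.53, 4.04 and 4.16 in young and 3.05, 3.45 and 4.06 in aged samples, a difference of -0.39 ± 0.30 (0.513), and was highest on replicate 3 of each group, as Krt36 and Krt84 were.

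Other cells of the skin were read for their own content on these arrays. All 9 melanocyte genes were lower, against 36.4% of all genes, with a median of -1.30 beside 0.09. By limma 0 passed while 5 had an unadjusted p under 0.05, against 6.30% of genes lower with such a p. Mitf, the lineage transcription factor, differed by -1.06 ± 0.17 (limma adjusted p = 0.107), Kit, well above background on 2 of the 3 aged arrays, by -2.10 ± 0.70 (0.218), Tyrp1 by -1.59 ± 0.56 (0.231) and Mlana by -1.93 ± 0.72 (0.243). The summed level of the list was 15.5 to 19.5 on young arrays and 14.1, 6.13 and 5.22 on aged replicates 1, 2 and 3, so it was low on the arrays on which Krt31 and Krt35 were low, and its part in their values was not tested. Of 12 tested genes of the outer root sheath and follicle stem cells 10 were lower, against 36.4% of all genes. Their median was -0.55. Krt6a differed by -1.01 ± 0.21 (0.131), Krt6b by -0.53 ± 0.21 (0.263) and the stem cell gene Lgr5 by -1.67 ± 0.57 (0.220). In that list 0 passed, and 4 had an unadjusted p under 0.05, all lower, against 6.30% of all genes.

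Lists for dermal cells, immune cells and the sebaceous gland behaved in other ways on aged replicate 1. Of 5 fibroblast genes tested 4 were lower, against 36.4% of all genes. The collagen genes Col1a1 and Col3a1 passed the threshold, as 0.0354% of all genes did with aged samples lower. Col1a1 differed by -2.95 ± 0.18 (limma adjusted p = 0.0283), with aged values of -4.34, -4.56 and -4.54, of which the last was not well above background. Col3a1 was not well above background on any of the 3 aged arrays and so had to be brighter in young samples to be tested. By the processed signal Col3a1 was at least 4.78-fold higher in young than in aged samples (limma adjusted p = 0.0467). That bound is against the lowest signal above background on each aged array, and does not carry over to the normexp values below. Pairing by the replicate block ended both calls (adjusted p = 0.153 for each), as did leaving out any 1 array other than aged replicate 1 (0.0759 to 0.194) and testing without a filter (0.0722 and 0.116). The slide row as a block (0.394 for each) and normexp background correction (0.0534 and 0.103) ended them too, and with normexp the differences were -1.16 and -0.55. Neither collagen was high on aged replicate 1, where Krt31 and Krt35 were. The summed level of that list was 6.53 to 8.72 on young arrays and 21.3, 4.64 and 3.16 on aged arrays, most of it from Dcn, a proteoglycan gene named after its values were seen, which was at 4.34, 1.92 and 1.19. The 7 sebaceous gland genes, 3 lower and 4 higher with 0 past the threshold by limma and 0 at an unadjusted p under 0.05, summed to 48.1 to 91.8 on young arrays and 169.2, 77.01 and 34.2 on aged arrays. Both sums were highest on aged replicate 1 and lowest on aged replicate 3 within the aged group, as Krt31 and Krt35 were, but on aged replicate 1 they lay above every young array. Of 6 leukocyte genes tested 5 were lower, against 36.4% of all genes, and by limma 0 passed and 0 had an unadjusted p under 0.05. Their summed level was 5.89 to 8.71 on young arrays and 2.01, 4.46 and 8.34 on aged arrays, lowest where Krt31 and Krt35 were the highest of the aged group. The part of these cells in the values of the 4 keratins was not tested.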

How the data were processed

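Tail epidermis in 3 young and 3 aged samples was measured on 1-colour arrays of 1 slide. Per the file headers, the slide was read in 1 scan and quantified by Feature Extraction version 11.5.1.1. The deposited processed signal is a linear spot intensity, background-subtracted and detrended within the array, per the file headers. The authors' table of log2 values is given for 33870 probes, with no stated scale. It matched these values, centred on each probe's median, with r of at least 0.9999 on each array, and served as an alternative. The control and detection flags, listed as other columns, are deposited by the scanner software.

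The log2 of each intensity was taken after division by the 75th percentile of its array. Spots flagged as outliers, 116 to 170 on an array, were dropped, and replicate spots were averaged by probe. Of 55681 probes, 28331 were named by RefSeq accession. Probes well above background on at least 3 arrays, with at most 1 array missing, were tested, a gene by its brightest probe (25066 features, 14134 genes), with limma 3.58.1 in R 4.3.3, two-sided and Benjamini-Hochberg adjusted over all features. With so few arrays their number limits the precision.

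Genes were named by a rule: the 4 keratins, the 5 nearest profiles of each, up to 4 genes of a list by unadjusted p, the lineage genes, and 3 measured neighbours on each side. For fibroblast, leukocyte and sebaceous lists only genes past the threshold are named, apart from Dcn. The 4 keratins and all lists were chosen with earlier results of these data known. Same-numbered samples had deviations with r of 0.414, 0.259 and 0.102 across features, so the replicate number was tried as a block. Young replicate 2 with aged replicate 3 had r of 0.286 and young replicate 3 with aged replicate 2 had 0.095, and the labels do not say what the numbers share. Alternatives were other scalings, normexp on the median spot signal (in place of the planned mean signal), other filters, the mean of a gene's probes, the authors' values, array weights, the slide row as a block and each array left out. The procedure was tested on simulated data.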

Additional observations from a re-analysis of the deposited data

How the results depend on the processing

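Under each alternative run, Krt31 and Krt35 kept their direction. Leaving out each array in turn, Krt31 differed by -4.77 to -2.12 and Krt35 by -5.64 to -2.92, and Krt36 by -0.16 to 0.06 and Krt84 by -0.10 to 0.09. With the slide row as a block, which leaves 1 young array beside the aged ones, they differed by -3.77, -3.93, -0.21 and -0.06, and with array weights by -3.51, -4.81, -0.06 and 0.03. Without replicate 1 of both groups they differed by -4.61, -5.36, 0.01 and 0.08. The count of genes past the threshold, 11, was less stable. It was 7 under quantile normalization, 21 under scaling to the median, 3 with probes well above background on all 6 arrays, 1 without a filter, 0 with the slide row as a block, 2376 with array weights, 215 without replicate 1 of both groups, and 0 to 809 when each array was left out, the highest without aged replicate 1. Pairing by the replicate block gave 0, with 2711 genes at an unadjusted p under 0.05, and left the differences of the 4 keratins as they were, since the design is balanced. The cause of these changes was not tested. With array weights, 8 hair shaft and 9 inner root sheath genes passed, beside 2376 of all 14134 genes, 1007 of them lower in aged samples. Background correction used the median spot signal, as the files used here hold no mean signal.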
